A study of Homo sapiens with 18 samples.

Results

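The replication-dependent histone genes were followed across 12 peak lists of A549 cells, a human lung adenocarcinoma line. Members were the protein-coding genes of the RefSeq gene table of GRCh38.p14 whose symbol starts with H2AC, H2BC, H3C or H4C and a number, or is H1-1 to H1-6. This gave 70 of 19974 protein-coding genes on chromosomes 1 to 22 and X: 6 for H1, 17 for H2A, 19 for H2B, 13 for H3 and 15 for H4. The assay was CUT&Tag: antibodies on chromatin recruit a transposase, which cuts and tags DNA close to them. Of the 3 conditions, WT is unaltered, YTHDF1-KO lacks YTHDF1 by knockout, and siARID1A received siRNA against ARID1A. In each, 2 replicates were taken with anti-YTHDF1 and 2 with anti-ARID1A antibodies. YTHDF1 reads N6-methyladenosine in RNA, and ARID1A is a DNA-binding subunit of a SWI/SNF chromatin remodeller. The sources used here give neither whether the knockout cells were 1 clone nor whether replicates were separate cultures. IgG samples (6) and cells with both alterations were not analysed here.

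Histones package DNA into nucleosomes. H2A, H2B, H3 and H4 form the core around which DNA is wrapped, and H1 binds the linker DNA between cores. The replication-dependent genes lie in clusters, are short and without introns, and are transcribed together in S phase from a nuclear structure called the histone locus body. Their transcripts end in a stem-loop instead of a poly(A) tail, and several H2A and H2B genes share a promoter region from which they are read in opposite directions.

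Members on the same chromosome with gaps of at most 300 kb between them were treated as a cluster. Chromosome 6 held 55 members, with 34 in a first cluster at 25.7 to 26.3 Mb, 5 in a second near 27.1 Mb and 16 in the third at 27.8 to 27.9 Mb. Chromosome 1 held 13, with 11 at 149.8 to 149.9 Mb and the pair H2AC25 and H2BC26 near 228.5 Mb. H4C16 on chromosome 12 and H2BC12L on chromosome 21 stood alone. Of the members, 62 were at most 1500 bp long. The other 8 have longer annotated spans, up to 29682 bp for H2BC18, that reach over neighbours. H4C15 spans H2AC19 and H3C15, so a peak counted for H4C15 can lie over those genes. In every list the strongest peak counted for H4C15 missed its start, with the highest signal 6624 to 19896 bp away from it.

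RefSeq promoter sequences of GRCh38.p14 matched 64 members by gene ID, and H4C1, H4C3, H2AC12, H3C11, H3C12 and H2BC12L had no entry. The 150 bases before the start of 7 members are printed 5′ to 3′ on the gene's strand, since the results turn on these members. H3C14, H3C1 and H4C16 had a peak in all 12 lists, H2BC11, H2BC15 and H1-2 in some groups of lists only, and H2BC8 in none. Capitals mark, on either strand, the CCAAT box by these 5 letters. They also mark the letters TATAAA, the core promoter element that the TATA-binding protein recognises. The octamer, bound by POU2F1, was searched as ATTTGCAT. The H1 box of linker histone promoters was searched as AAACACA.

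H3C14 (chr1:149841209-149841358, minus strand): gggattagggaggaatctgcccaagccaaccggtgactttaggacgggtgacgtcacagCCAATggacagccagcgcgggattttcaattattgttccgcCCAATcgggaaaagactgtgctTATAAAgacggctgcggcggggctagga

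H3C1 (chr6:26020301-26020450, plus strand): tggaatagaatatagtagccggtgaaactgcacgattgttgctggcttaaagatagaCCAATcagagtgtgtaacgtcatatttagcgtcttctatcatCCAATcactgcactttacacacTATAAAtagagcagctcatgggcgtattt

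H4C16 (chr12:14771132-14771281, minus strand): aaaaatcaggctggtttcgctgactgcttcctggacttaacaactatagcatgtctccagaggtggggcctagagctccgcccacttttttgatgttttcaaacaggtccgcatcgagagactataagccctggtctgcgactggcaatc

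H2BC11 (chr6:27132796-27132945, minus strand): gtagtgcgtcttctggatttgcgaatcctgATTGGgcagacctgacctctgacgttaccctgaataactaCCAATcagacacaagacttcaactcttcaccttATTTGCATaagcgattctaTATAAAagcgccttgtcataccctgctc

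H2BC15 (chr6:27838419-27838568, plus strand): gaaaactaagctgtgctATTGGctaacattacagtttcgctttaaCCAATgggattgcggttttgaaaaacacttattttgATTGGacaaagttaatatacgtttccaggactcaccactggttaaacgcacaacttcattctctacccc

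H1-2 (chr6:26056471-26056620, minus strand): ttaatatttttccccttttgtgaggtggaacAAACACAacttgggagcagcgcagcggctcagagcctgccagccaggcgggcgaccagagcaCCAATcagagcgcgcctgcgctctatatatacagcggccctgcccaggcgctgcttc

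H2BC8 (chr6:26216689-26216838, minus strand): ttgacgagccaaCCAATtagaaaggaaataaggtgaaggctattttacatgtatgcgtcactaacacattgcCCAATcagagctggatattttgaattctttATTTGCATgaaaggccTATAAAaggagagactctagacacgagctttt

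The letters were searched on both strands in the 250 bases before each start, and a base could count for more than 1 motif. CCAAT was found in 84.4% of the 64 promoters and in 32% of the 35116 promoters of the whole table, which counts each start of a gene. TATAAA was found in 65.6% against 10.7%, and the octamer in 40.6% against 1.63%. The families differed in these letters. CCAAT was in 100% of H1, H2A, H2B and H3 promoters but in 3 of 13 H4 promoters. The octamer was in 14 of 18 H2B and 11 of 16 H2A promoters and in 1 of the others, that of H3C4, whose annotated start is that of H2AC7. The H1 box was in all 6 H1 promoters and in no other member, against 4.82% of the table. Median GC content was 42.6% for members and 58.0% for the table.

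Peaks were the authors' own, called per sample. A gene was held by a list if a peak overlapped the gene or 1 kb to either side by at least 1 bp. The total signal of the strongest such peak was expressed as a percentile among all peaks of its list, because each library has its own scale and its sequencing depth is unknown. Signal comes from many cells, so fewer cells with the protein at a site and less of it per cell cannot be told apart. The anti-YTHDF1 lists held 40562 to 59632 peaks and the anti-ARID1A lists 71271 to 106882 on these chromosomes. Anti-ARID1A peaks covered 228 and 266 Mb in WT but 99.0 and 128 Mb in siARID1A cells. The 12 lists were distinct and none held overlapping peaks. Epithelial marker genes were held by all 6 anti-ARID1A lists in 4 of 5 cases (KRT8, KRT18, KRT19 and CDH1), against 2 of 6 blood and liver markers. Peak lists do not show whether the YTHDF1 or ARID1A protein was lost. The YTHDF1 gene was held by all 12 lists, and the ARID1A gene by 6 anti-ARID1A and 5 anti-YTHDF1 lists.

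**Figure D1:**
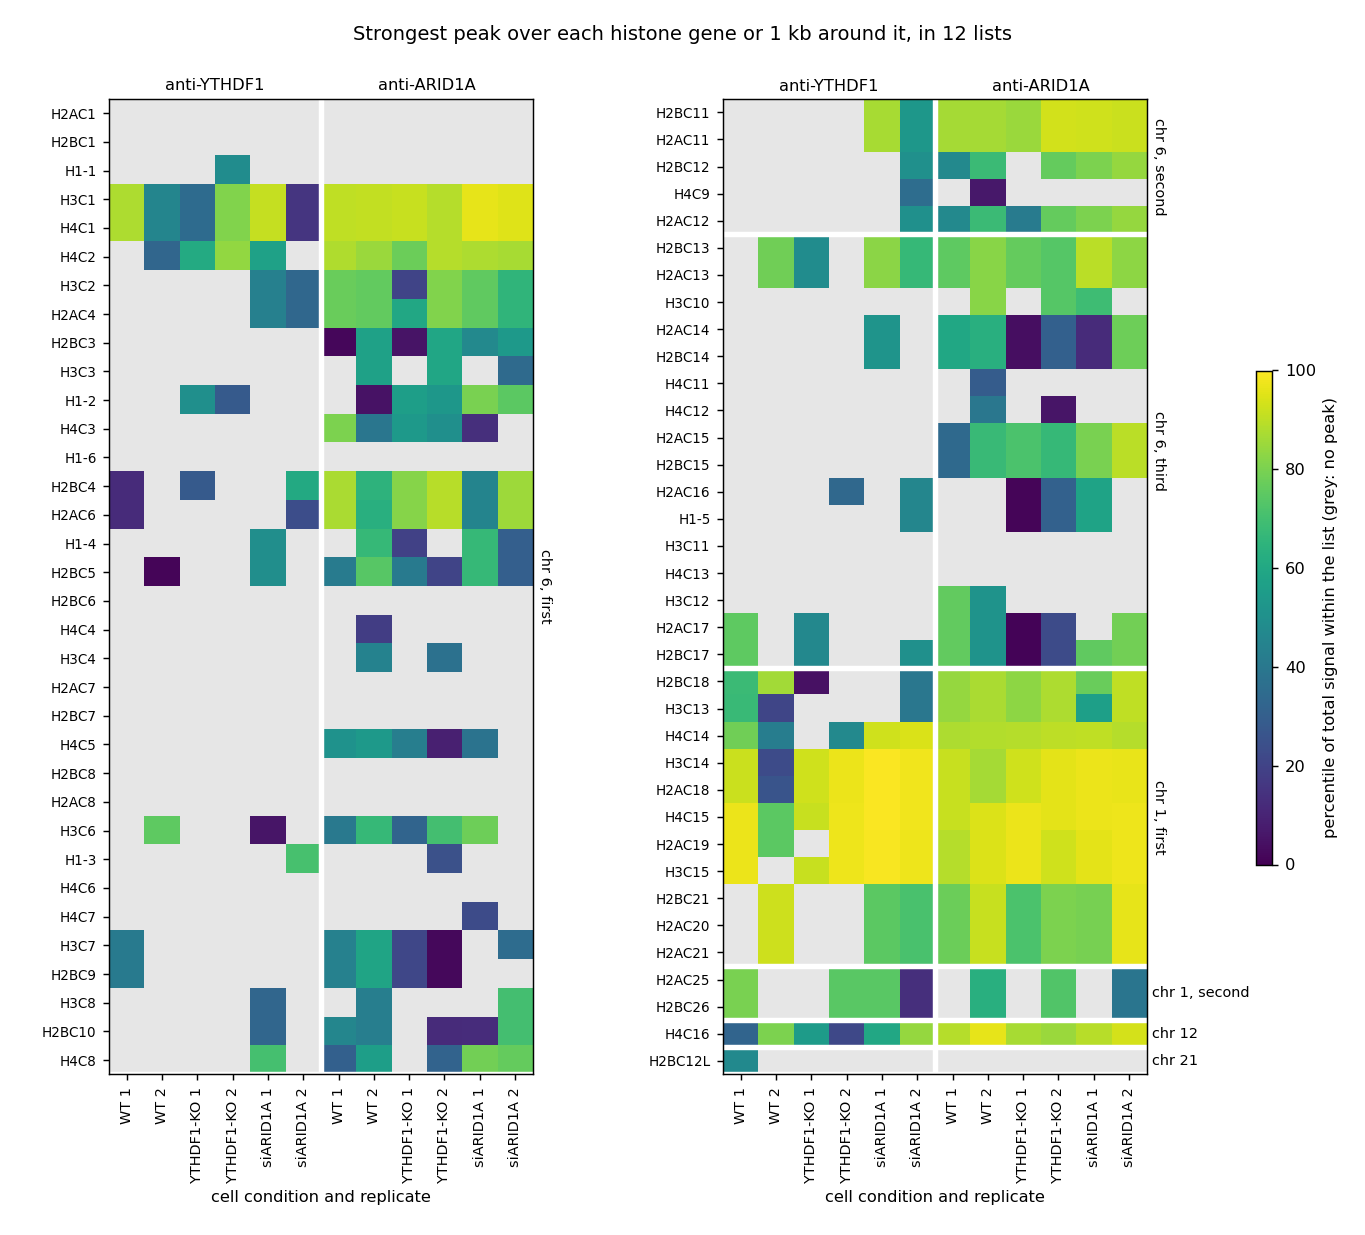
Percentile of total signal (colour, 0 to 100) of the strongest peak over each of the 70 histone genes (rows, in genome order by cluster) in each of the 12 lists (columns, by antibody, condition and replicate), with grey where the list has no peak. The 11 genes of the first chromosome 1 cluster are filled in all 6 anti-ARID1A columns, while long grey stretches run through the first chromosome 6 cluster.

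Histone genes ranged from a peak in every list to none, with 53 of 70 in between. With anti-ARID1A, 31 of 70 members (44.3%) were held by all 6 lists, against 68.3% of all genes and 23.8% of the 826 other genes of at most 1500 bp. With anti-YTHDF1, 6 of 70 (8.57%) were held by all 6 lists, against 35.8% of all genes and 11.9% of the short genes. These 6, H3C14, H2AC18, H4C15, H3C1, H4C1 and H4C16, were the members held by all 12 lists. Members held by none of the 12 lists numbered 11: H1-6, H2AC1, H2AC7, H2AC8, H2BC1, H2BC6, H2BC7, H2BC8, H3C11, H4C6 and H4C13. H1-6, H2AC1 and H2BC1 are known as genes of the male germ line. Anti-ARID1A left 13 members without a peak in any list and anti-YTHDF1 left 24.

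The linker histone genes were the least often held. H1-2 had anti-ARID1A peaks in 5 lists, at the 4.97th percentile in the second WT list, at 56.2 and 52.8 in YTHDF1-KO and at 79.8 and 74.8 in siARID1A cells. Only 1 WT list held it, and both siARID1A values lay above those of the other conditions. H1-4 was held by 4 anti-ARID1A lists (19.3 to 67.0), H1-5 by 3 (1.35 to 58.1) and H1-3 by 1 (24.7). H1-1 and H1-6 were in no anti-ARID1A list. With anti-YTHDF1, H1-1, H1-3, H1-4 and H1-5 were each in 1 list, H1-2 in 2 and H1-6 in none. No linker gene was held by all 6 lists of either antibody.

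Among the core histones, the share of members held by all 6 anti-ARID1A lists was 11 of 17 for H2A, 10 of 19 for H2B, 5 of 13 for H3 and 5 of 15 for H4. With anti-YTHDF1 it was 1 of 17, 0 of 19, 2 of 13 and 3 of 15. These counts are not independent, because 19 of the 42 regions made by merging overlapping peaks over members touched several members, 9 of them with an H2A and an H2B gene. The highest mean percentiles with anti-ARID1A were 95.7 for H4C15, 94.4 for H2AC19 and H3C15, and 93.5 for H3C14 and H2AC18. The value for H4C15 comes from peaks also counted for H3C14 and H2AC18 or for H2AC19 and H3C15, away from its own start. H3C14 lay at 91.7 and 86.5 in WT, 92.9 and 96.1 in YTHDF1-KO and 97.3 and 96.7 in siARID1A lists, so that both siARID1A values were above all others. Among the members held by all 6 lists, the lowest means were 37.4 for H2BC3, 41.2 for H2AC14 and H2BC14, 45.7 for H2BC5 and 50.8 for H2BC17. H2BC3 ranged from 1.57 to 59.1.

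Near-identical gene copies sit in the first chromosome 1 cluster: H2AC18 and H2AC19, H3C14 and H3C15, H4C14 and H4C15. The treatment of reads that match both copies is not stated, so the split of signal between them is uncertain. This cluster was the most evenly held. All 11 members were in all 6 anti-ARID1A lists, with a median percentile of 90.6 over genes and lists. Merged peaks over H3C14, H2AC18 and H4C15 (chr1:149835745-149844905) and over H4C15, H2AC19 and H3C15 (chr1:149846988-149858913) were present in all 12 lists. H4C14 was in 11 lists, and H2BC21, H2AC20 and H2AC21 shared peaks in 9. With anti-YTHDF1, H3C14 lay at 91.9 and 22.9 in WT, 92.6 and 96.9 in YTHDF1-KO and 99.3 and 98.0 in siARID1A lists. The second WT list was the low one, and both siARID1A values were again highest.

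The first chromosome 6 cluster, the longest at 559 kb, was patchy. Of its 34 members, 9 were in all 6 anti-ARID1A lists and 10 in none of them. Anti-ARID1A peaks covered 5.25% to 12.5% of its length, against 25.9% to 44.7% in the chromosome 1 cluster. Its strongest site was the one shared by H3C1 and H4C1 (chr6:26019852-26023353), at 90.5 and 90.9 in WT, 91.5 and 89.1 in YTHDF1-KO and 96.3 and 95.1 in siARID1A anti-ARID1A lists. The siARID1A lists were highest again, while anti-YTHDF1 values at the same site spread from 15.5 to 91.3 with overlap of all conditions. H4C2, next to it, was in all 6 anti-ARID1A and 4 anti-YTHDF1 lists. From H2BC6 to H4C7, members lay mostly in no list or in 1 or 2, with H4C5 in 5 anti-ARID1A lists (8.63 to 53.6) and H3C6 in 5 (32.4 to 77.9) as the exceptions.

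The second chromosome 6 cluster was led by the pair H2BC11 and H2AC11 (chr6:27128991-27135219), at 86.5 and 86.5, 85.1 and 93.3, and 93.0 and 91.9 in WT, YTHDF1-KO and siARID1A anti-ARID1A lists. In the third cluster 7 of 16 members were in all 6 anti-ARID1A lists. H2BC13 and H2AC13, which share a peak, led it at 73.7 to 89.7. H4C16 on chromosome 12, alone on its chromosome and with none of the printed motif letters in capitals, was in all 12 lists, at 84.9 to 96.2 with anti-ARID1A and 21.6 to 84.3 with anti-YTHDF1. H2BC12L was in 1 anti-YTHDF1 list.

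Promoters of members held by all 6 anti-ARID1A lists carried TATAAA in 24 of 29 cases, those held by 1 to 5 lists in 11 of 24 and those held by none in 7 of 11. For CCAAT the counts were 25, 18 and 11 of the same totals, and for the octamer 13, 6 and 7. The promoter of H2BC8, in no list, held CCAAT, the octamer and TATAAA, as did that of H2BC11, in 8 lists. These are descriptions of letters and no test was made of them.

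Most anti-ARID1A peaks over members covered the gene start. Start positions were known for 64 members. In 75.7% of 251 gene and list pairs the anti-ARID1A peak covered the start, and in 63.7% its highest signal lay within 1000 bp of it. For anti-YTHDF1 these shares were 49.2% and 58.3% of 120 pairs. Peaks with anti-ARID1A over members had a median width of 1468 to 2494 bp by list, and those with anti-YTHDF1 of 1032.5 to 1960.5 bp. A peak counted only if it lay over a mostly short gene or 1 kb around it, so nearness to the start is partly built in. The shares were not computed for other genes, and the part of peak width in the difference between antibodies was not tested.

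**Figure D2:**
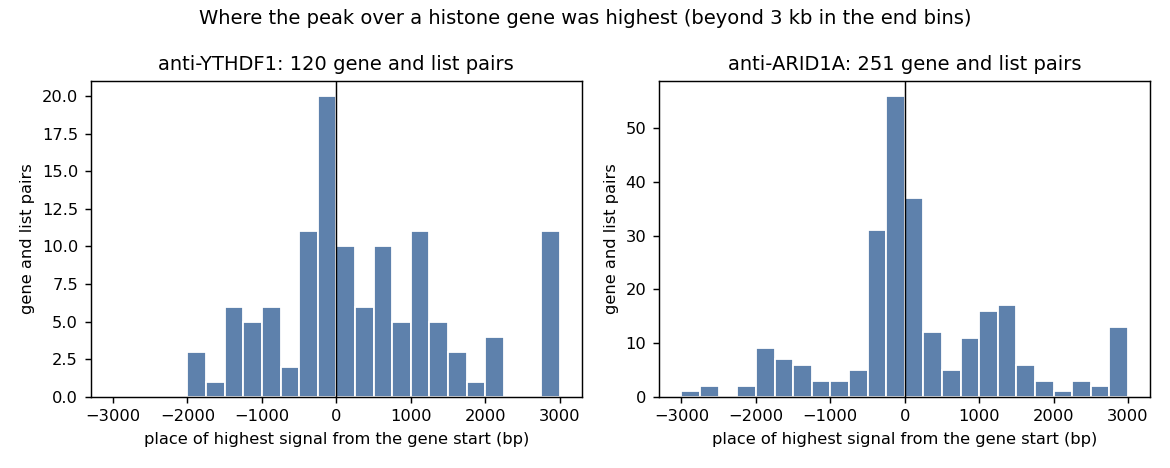
Distance in bp (250 bp bins) from the gene start to the place of highest signal of the strongest peak, counted over 120 anti-YTHDF1 and 251 anti-ARID1A gene and list pairs. Positive values lie downstream of the start on the gene's strand and can fall past the end of a short gene. Distances beyond 3 kb are put in the end bins. The tallest bar in both panels is the one just before the start.

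In 11 pairs an H2A and an H2B gene start 194 to 248 bp apart and are read away from each other. Of the cases in which a list held either gene, it held both in 62 and 1 of them in 3, and in 60 the strongest peak was the same for both. The window reaches 1 kb to either side of each gene, so the windows of most pairs largely overlap. Holding both genes under the same peak is thus largely built in, and binding shared by the genes was not tested. In 7 pairs the strongest peak was the same for both genes in every list that held both, and 3 pairs, H2AC1 with H2BC1, H2AC7 with H2BC7 and H2BC8 with H2AC8, were in no list.

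Anti-ARID1A lists held more members than anti-YTHDF1 lists, but no single member passed the test between antibodies over all genes. Members held per list numbered 41 and 53 (WT), 41 and 50 (YTHDF1-KO) and 43 and 42 (siARID1A) with anti-ARID1A, and 20 and 18, 15 and 15, and 29 and 31 with anti-YTHDF1. The groups of 6 do not overlap, as also holds for the share of all genes, 74.7% to 82.3% against 57.4% to 67.2%. H2BC3, H2AC15 and H2BC15 were in all 6 anti-ARID1A lists and in no anti-YTHDF1 list (Fisher's exact test, p = 0.00216, adjusted p = 0.24 over all genes). After Benjamini-Hochberg adjustment over all 19974 genes, 0 members and 0% of genes were called in either direction. The value of p = 0.00216 is the smallest that this exact test can give with 6 lists against 6. Unadjusted p-values under 0.05 were found for 8 members (11.4%), against 4.16% of genes, all with more anti-ARID1A lists: H2BC3, H4C3, H4C5, H2AC12, H2AC14, H2BC14, H2AC15 and H2BC15. In the other direction there were 0 members and 0.03% of genes. Adjusted over the 2278 genes held by 5 to 7 lists, where alone such p-values can arise, the same 8 of 20 members (40%) were called, against 36.4% of genes. That share is near the background. Anti-ARID1A lists hold more peaks, and the part of list length in these counts was not tested gene by gene.

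**Figure D3:**
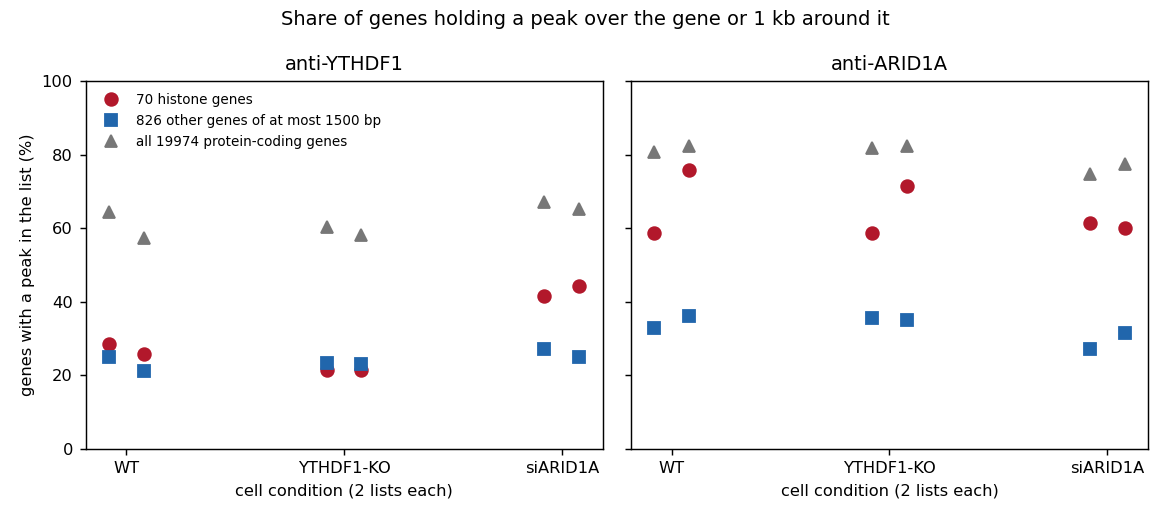
Percentage of genes with a peak over the gene or 1 kb around it, by cell condition, for each of 2 lists, in the 70 histone genes (circles), 826 other genes of at most 1500 bp (squares) and all 19974 protein-coding genes (triangles). With anti-YTHDF1 the histone genes sit at 41.4% and 44.3% in siARID1A cells, above the 21.4% to 28.6% of the other conditions.

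Both comparisons with an altered condition share the WT lists. Between YTHDF1-KO and WT cells, few members were called in both lists of one condition and in neither of the other. With anti-YTHDF1, WT-only calls numbered 1, H3C13 (1.43% of members, against 2.58% of genes), at 67.7 and 21.1. Knockout-only calls numbered 1, H1-2 (1.95% of genes), at 49.8 and 28.2. Over all members both shares were below the background, but among members held by both lists of the condition they were 10.0% (of 10) and 11.1% (of 9), against 5.22% and 4.13% of genes so held. Each rests on 1 gene. Anti-YTHDF1 peaks were also called in cells labelled as lacking YTHDF1: of the 10 members held by both WT lists, 6 (60%) were held by both knockout lists, which was 66.7% of the 9 held there. For all genes these shares were 77.2% and 80.8%. How much of the anti-YTHDF1 signal comes from YTHDF1 was not tested.

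With anti-ARID1A, 37 of 41 members held by both WT lists (90.2%) were held by both YTHDF1-KO lists, against 96.1% of all genes so held. WT-only calls numbered 1, H3C12 (0.731% of genes), at 75.9 and 51.3, and knockout-only calls 2, H2AC16 and H1-5 (2.86% of members, 0.921% of genes), which shared 1 peak at 1.35 and 31.2. The WT peaks of H3C12 were also those of H2AC17 and H2BC17. Both YTHDF1-KO lists held H2AC17 and H2BC17, at 0.93 and 22.8, so the call for H3C12 does not show loss of the site. Relative signal was then compared with limma, as log2 total signal centred on the median of the genes held by all 6 lists of the antibody. Of the 31 members tested, 14 were higher and 17 lower in YTHDF1-KO than in WT cells, with a median log2 difference of -0.06 against 0.04 for all 13641 genes. None passed an adjusted p of 0.05, as was so for 0% of genes in each direction, while 1 member, H2BC17, and 1417 genes had an unadjusted p under 0.05. H2BC17 differed by -1.23 (standard error, SE, 0.44, limma, adjusted p = 0.395). For anti-YTHDF1, 3 of 6 members tested were higher and 3 lower, and 0 members and 0% of 7148 genes were called. H3C14 and H2AC18 had unadjusted p-values under 0.05 there (log2 difference 1.23, SE 0.57, adjusted p = 0.653 for H3C14), as did 537 genes.

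In siARID1A cells more members carried an anti-YTHDF1 peak than in WT cells. The lists held 29 and 31 members in siARID1A and 20 and 18 in WT cells, and the groups do not overlap. Members that share a peak are counted separately here. The distinct strongest peaks over them numbered 16 and 18 in siARID1A and 12 and 13 in WT lists. For all genes the shares were 67.2% and 65.3% in siARID1A and 64.5% and 57.4% in WT cells, which do not overlap either. With every anti-YTHDF1 list limited to its 40562 strongest peaks, the counts were 28 and 26 against 18 and 18, with 14 and 15 in YTHDF1-KO, while all genes lay at 54.9% to 57.7%. An exact two-sided permutation test of 2 lists against 2 cannot give a p below 0.33, and no p-value was computed for these counts. Both siARID1A and neither WT list held 4 members, H3C2 with H2AC4 and H2BC11 with H2AC11, each pair under 1 peak (5.71% of members, against 2.71% of genes). H2BC11 and H2AC11 lay at 86.8 and 53.0, and H3C2 and H2AC4 at 43.4 and 33.6. The YTHDF1-KO lists did not hold these 4 members either. WT-only calls numbered 0 (1.23% of genes). Among the 20 members held by both siARID1A lists the 4 made up 20%, against 4.82% of genes so held.

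Of the 41 members held by both WT anti-ARID1A lists, 34 (82.9%) were held by both siARID1A lists, which are shorter, against 88.4% of all genes so held. WT-only calls numbered 2, H2BC9 and H3C12 (2.86% of members, 2.52% of genes), and siARID1A-only calls 0 (0.36% of genes). H2BC9 shared its WT peaks with H3C7, which the second siARID1A list held at 35.2. H3C12 shared its WT peaks with H2BC17, which both siARID1A lists held, at 75.6 and 78.6. These calls thus do not show loss of the sites. Members held per list numbered 41 and 53 in WT (58.6% and 75.7%) and 43 and 42 in siARID1A cells (61.4% and 60.0%), and the groups overlap. All genes lay at 80.7% and 82.3% in WT and 74.7% and 77.5% in siARID1A cells, and short genes at 32.8% and 36.2%, and 27.2% and 31.5%.

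At most members the relative anti-ARID1A signal was higher in siARID1A than in WT lists, and no single member passed the test. H2AC15 and H2BC15, which share a peak, lay at the 34.1st and 67.9th percentile in WT, at 71.6 and 67.1 in YTHDF1-KO and at 79.9 and 89.6 in siARID1A lists. Their centred log2 signal was -2.34 and -1.41 in WT, and -0.24 and 0.30 in siARID1A cells, so both siARID1A values were above both WT values. The difference was 1.91 (SE 0.41, limma, adjusted p = 0.0553). H3C14 and H2AC18 went from 0.38 and -0.27 to 1.56 and 1.34, a difference of 1.39 (SE 0.35, adjusted p = 0.078). H2AC12 differed by 1.53 (SE 0.46, adjusted p = 0.109). H3C1 and H4C1 differed by 0.95 (SE 0.29, adjusted p = 0.111). These are the members with the smallest adjusted p-values beside H4C15, and none passed 0.05 by limma.

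Over the 31 members tested, 29 were higher and 2 lower in siARID1A than in WT cells, with a median log2 difference of 0.87. The 2 were H3C13 at -0.11 and H4C16 at -0.02, where the second WT value of H4C16 is that of the peak reaching over H2AJ. The median was 0.02 over all 13641 genes, of which 51.1% were higher, and -0.43 over 197 other short genes. Both siARID1A values lay above both WT values for 18 members (58.1%), against 29.9% of genes, and below them for 0 members, against 27.3% of genes. Limma called 0 members in either direction, with 0.381% of genes called higher and 2.92% lower, and 12 members had an unadjusted p under 0.05, against 25.4% of genes. Some of the higher values compare different sites. For H2BC5 the highest signal lay at 13934 and 14239.5 bp from the start in WT and at -415 and -808.5 bp in siARID1A lists. For H2BC18 it lay at 19412 bp in siARID1A replicate 1, while both WT peaks covered the start. Members were tested only where all 6 lists held them, several share a peak, and no test was made of the list as a whole.

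**Figure D4:**
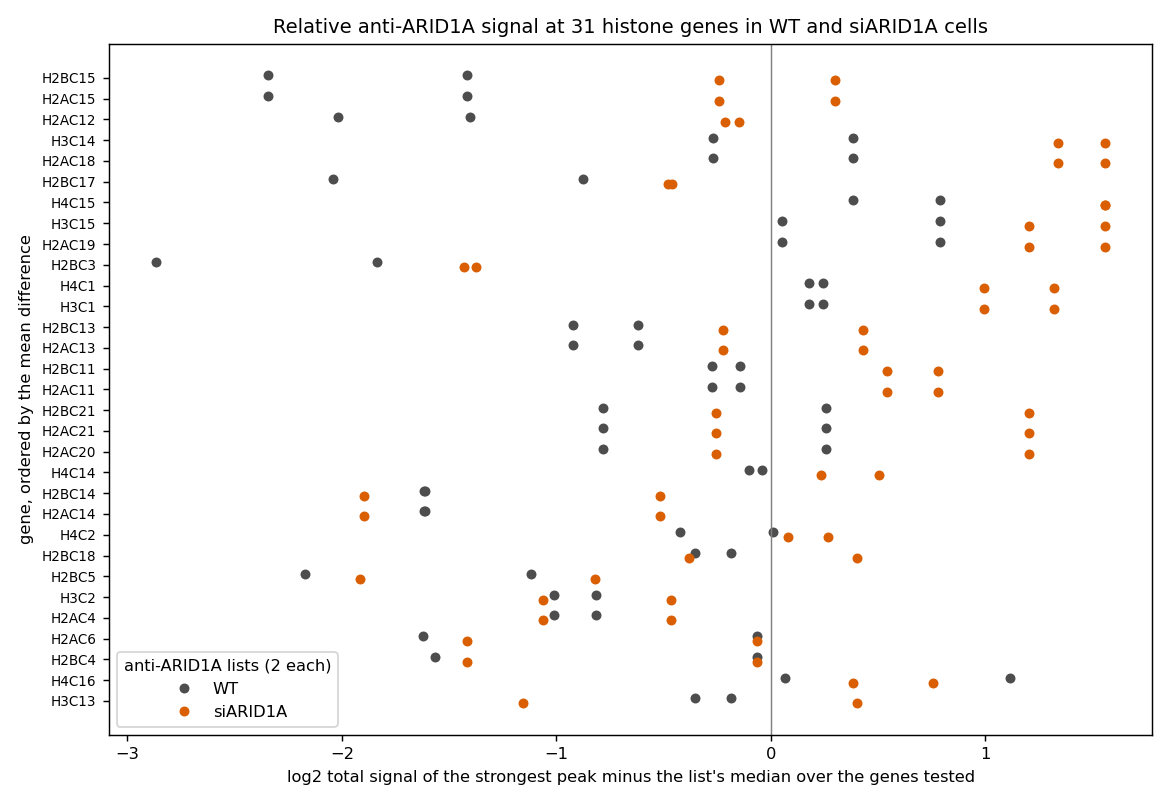
Log2 total signal of the strongest anti-ARID1A peak minus the list's median over 13641 genes (x axis), for the 31 histone genes held by all 6 lists (rows, ordered by the mean difference), in 2 WT lists (grey) and 2 siARID1A lists (orange). Orange points lie to the right of both grey points in 18 rows and to the left of both in 0.

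Other genes near the chromosome 6 clusters were also mostly higher. In this comparison the median log2 difference was 0.28 for 9 members of the first chromosome 6 cluster, 0.87 for 3 of the second and 0.87 for 7 of the third, and 0.74 for 11 of the first chromosome 1 cluster. Other genes within 2 Mb of the 3 chromosome 6 clusters had medians of 0.53 (20 genes), 0.58 (15 genes) and 0.62 (13 genes), and 465 other genes of chromosome 6 a median of 0.29. The windows around the 3 clusters overlap one another, so their medians are not independent. Around the chromosome 1 cluster 68 other genes had a median of -0.03, with 33 higher and 35 lower, and 1344 other genes of chromosome 1 a median of 0.03. The members on chromosome 6 thus lay among genes that were mostly higher too, and those on chromosome 1 among genes that were not. The part of the neighbourhood in the members' values was not tested. By level, genes split into 3 equal groups of low, middle and high mean signal had medians of 0.26, 0.09 and -0.37, and the 14, 12 and 5 members in them 0.64, 0.74 and 0.97.

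With anti-YTHDF1, the relative signal of 4 of 6 members was higher and of 2 lower in siARID1A than in WT cells. H3C14 differed by 2.19 (SE 0.57, limma, adjusted p = 0.422), H2AC18 by 2.18 and H4C15 by 1.40. For H4C15 the strongest peaks lay over H2AC19 in WT lists and over H3C14 and H2AC18 in siARID1A lists. Its difference thus compares different sites. H4C16 differed by 0.15, and H3C1 and H4C1 by -0.35. Neither a member nor any of the 7148 genes was called (0%), 3 members and 517 genes having an unadjusted p under 0.05.

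Of 16 genes that serve the histone locus body and the processing of histone transcripts, 15 (93.8%) were held by all 6 anti-ARID1A lists and 6 (37.5%) by all 6 anti-YTHDF1 lists, against 68.3% and 35.8% of all genes. They were not tested against the histone genes, which are mostly short. NPAT, the coactivator of histone transcription at the histone locus body, was in all 6 anti-ARID1A lists at a mean percentile of 86.8 and in 5 anti-YTHDF1 lists. CDK2, the kinase that phosphorylates NPAT, was in all 12 lists (97.2 and 94.7 with anti-ARID1A and anti-YTHDF1). SLBP, which binds the stem-loop, was in 6 and 5 lists (92.6 and 71.7). ERI1, the exonuclease that trims the histone mRNA end, was the exception with 5 and 4 lists. Among 12 replacement histone genes, which are expressed outside S phase, 10 were in all 6 anti-ARID1A lists and 3 in all 6 anti-YTHDF1 lists. H3-3B, which encodes H3.3, was in all 12 (95.9 and 83.4), and H3-5 in none.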

How the data were processed

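Groups and replicate numbers came from the sample titles. The submitters' processing notes name the builds hg38 and GRCh38 and the tools SEACR 1.3, Bowtie2 2.4.2, bedtools 2.30.0, SAMtools 1.9, deepTools 3.5.2 and fastp 0.23.2. Settings, scaling and how IgG was used are not stated there. The authors deposited 1 peak list per sample, with the total and the highest signal of each peak as coverage on a scale of its own. These values were used only as percentiles within a list or as log2 signal centred on the list's median.

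Peaks on chromosomes 1 to 22 and X were joined to RefSeq genes of GRCh38.p14 with Python 3.11.15, pandas 2.3.3 and SciPy 1.17.1. Presence was compared between antibodies by Fisher's exact test, two-sided. Signal was compared with limma 3.58.1 in R 4.3.3, in 1 fit per antibody over its 3 conditions, on genes held by all 6 lists. P-values were adjusted over all genes by the Benjamini-Hochberg method, with a threshold of 0.05, and cover no more than the spread between samples, which may be technical. The code was tested on simulated data.

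The members, clusters and gene lists were chosen with earlier results of these data known. Named were all H1 members, members called in both lists of a condition and in neither of the other or by limma, the 5 highest and 5 lowest mean percentiles per antibody among members held by all 6 lists, and members in no list. H2AC12, H3C1 and other members outside this rule were named after their values were seen. Alternatives covered the window, the overlap, list length, stricter peaks, the signal column, normalization, a replicate block and leaving out each list.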

Additional observations from a re-analysis of the deposited data

How the results depend on the processing

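Of 154 alternative values, 109 stayed within 1.5 times the reported count and 45 did not. Without the 1 kb flank, 2 members were held by all 6 anti-YTHDF1 lists, and members in both lists of a condition but no list of its counterpart numbered 0 for WT only against YTHDF1-KO with each antibody, 1 for YTHDF1-KO only with anti-ARID1A and 1 for WT only against siARID1A with anti-ARID1A. With 3 kb, WT only and YTHDF1-KO only with anti-YTHDF1 gave 0 and 2, and WT only against siARID1A with anti-ARID1A gave 1. With lists of equal length, WT only against YTHDF1-KO gave 2 with anti-YTHDF1 and 9 with anti-ARID1A, and with anti-ARID1A YTHDF1-KO only and siARID1A only gave 1 each. An overlap of at least 200 bp left 0 WT-only members with anti-ARID1A against either condition. With only peaks above the median signal, 20 members were held by all 6 anti-ARID1A and 1 by all 6 anti-YTHDF1 lists. With anti-YTHDF1 WT only against siARID1A and siARID1A only then gave 1 and 2, and with anti-ARID1A WT only against YTHDF1-KO, YTHDF1-KO only and siARID1A only gave 6, 1 and 1. H2BC11 and H2AC11 kept their siARID1A-only pattern under all 5 such settings and H3C2 and H2AC4 under 3.

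Leaving out 1 list at a time, which makes the pattern easier to meet, gave 2 to 6 and 1 to 3 members with anti-YTHDF1 for WT only and YTHDF1-KO only, and 0 to 4 and 7 to 10 for WT only against siARID1A and siARID1A only. With anti-ARID1A it gave 1 to 5 and 2 to 3, and 2 to 7 and 0 to 3, in the same order. Members held by every list of the antibody then numbered 31 to 34 with anti-ARID1A and 6 to 8 with anti-YTHDF1. Fisher's exact test called 8 members when adjusted over genes held by 5 to 7 lists, an alternative chosen after seeing the data. For anti-ARID1A in siARID1A against WT, limma called 1 member (H1-2) over genes held by at least 1 list of every condition, 2 (H2AC15 and H2BC15, adjusted p = 0.0458) with 3 kb, and 7 on percentiles, the last chosen after seeing the data. Adjusted p for H2AC15 lay between 0.0458 and 0.199 over 10 alternatives. For H1-2 the call rests on 1 WT list, at the 4.97th percentile, whose peak missed the gene start. Both siARID1A peaks over H1-2 covered the start. The median log2 difference of members stayed between 0.62 and 0.92 in all 9 alternatives on the log2 scale. Genes called numbered 450, but 235 after quantile normalization, 1492 on percentiles and 0 to 216 without 1 list, 0 without siARID1A replicate 1. With a replicate block limma called 0 members and 370 genes there, and 0 members in every other comparison, as did the exact test with a replicate block. Deviations of same-numbered samples correlated at -0.06 to 0.05, which gives no sign of pairing by number. Whether same-numbered samples were handled together cannot be told from these values. Depth is unknown, and absence from a list does not show absence of the protein.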
